A study of Homo sapiens with 12 samples.

Results

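AP-1 is a transcription factor built from pairs of leucine-zipper proteins, and 8 of its genes were followed here through inhibition of TEAD in 2 cancer cell lines. The genes were chosen by symbol: JUN, JUNB and JUND of the JUN family, FOS, FOSB, FOSL1 (FRA-1) and FOSL2 (FRA-2) of the FOS family, and the stress-induced partner ATF3. All 8 were found in both count tables, 8 of the 27064 gene symbols listed. The lines were NCI-H226 (H226), a mesothelioma line, and ACHN, a kidney cancer line. The submitters describe both as deficient in NF2, an upstream activator of the Hippo kinases, so treated and control groups alike share this background. Activity of the Hippo pathway was not measured. Cells received DMSO, the solvent control, or SWTX-143 at 100 nM overnight. SWTX-143 is an irreversible inhibitor of the TEAD proteins, the DNA-binding partners of the coactivators YAP and TAZ. There were 3 libraries of poly(A) RNA in each of the 4 groups, and a single dose and time. The labels do not say whether the 3 came from separate cultures, so p-values measure only the spread between these libraries, which may be technical.

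JUN proteins can pair with each other or with FOS proteins, whereas FOS proteins bind DNA mainly as partners of a JUN protein. FOS, FOSB, JUNB and ATF3 are known as genes switched on within minutes to hours by growth factors or stress, while JUND and FOSL2 are usually present at a steadier level. AP-1 and TEAD sites often lie in the same enhancers, where YAP, TAZ, TEAD and AP-1 proteins act on growth genes together. JUN is known to control its own promoter through AP-1-like elements bound by JUN and ATF2.

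The 250 bases before the start site are shown for the 3 JUN family genes because their RNAs moved in opposite directions under the inhibitor. They come from RefSeq (GRCh38.p14), where 7 of the 8 genes were matched by symbol and FOSL1 was not, with 8 windows in all because ATF3 has an additional start. Windows are JUN at chr1:58784048-58784297 (minus strand), JUNB at chr19:12791236-12791485 (plus strand) and JUND at chr19:18281623-18281872 (minus strand), read 5′ to 3′. Capitals mark matches on either strand to TGACNTCA, TTACCTCA (the distal AP-1-like element of JUN) and TGACG, a cyclic AMP response half-site chosen after the sequences were seen.
JUN: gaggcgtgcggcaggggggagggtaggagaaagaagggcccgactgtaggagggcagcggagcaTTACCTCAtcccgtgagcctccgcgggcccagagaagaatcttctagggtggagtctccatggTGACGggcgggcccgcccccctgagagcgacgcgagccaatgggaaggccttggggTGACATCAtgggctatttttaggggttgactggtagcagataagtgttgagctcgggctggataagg
JUNB: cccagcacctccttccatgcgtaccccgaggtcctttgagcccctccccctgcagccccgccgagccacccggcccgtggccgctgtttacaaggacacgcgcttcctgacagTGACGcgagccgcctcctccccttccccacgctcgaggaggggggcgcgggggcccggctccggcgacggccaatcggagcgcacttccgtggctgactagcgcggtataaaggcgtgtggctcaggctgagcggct
JUND: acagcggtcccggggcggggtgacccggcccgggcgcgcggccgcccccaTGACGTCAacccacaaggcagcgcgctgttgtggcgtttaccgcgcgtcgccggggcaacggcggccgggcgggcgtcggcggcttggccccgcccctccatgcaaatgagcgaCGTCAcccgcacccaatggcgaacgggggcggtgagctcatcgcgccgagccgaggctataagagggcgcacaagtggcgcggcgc
TGACNTCA begins at position −67 in JUN, counted from the start site, at −200 in JUND and at −123 in ATF3. It was in 3 of the 8 member windows and in 6.87% of all 35116 windows of that length. TGACNTCA is listed here as a JUN-type element, so its match in JUN was built in and this comparison is no test. The match in JUND also contains TGACG on both strands. TGACG was in 6 of the 8 windows and in 21.2% of all windows. Because it was chosen after these windows were seen, that comparison is no test. TTACCTCA, listed here as an element of JUN itself, was found at −186 in JUN and in 0.644% of all windows. All windows were used without matching for base content. Neither the AP-1 consensus TGANTCA (6.57% of all windows) nor the TEAD core GGAATG (11.9%) was in any of the 8. These matches are letters in a short window and show no binding, and enhancers farther away were not examined.

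Depth was even, with 9690980 to 11262663 counts per library, and the lines carried RNA of their tissues. All 8 mesothelial markers looked at were at or above 1 CPM (counts per 1000000 counts of the scaled library) in H226, against 3 of 8 in ACHN. Of 6 kidney epithelial markers 5 were at that level in ACHN and 2 in H226, with EMX2 at 0 counts in both. Markers of immune cells summed to 0.174 to 3.84 CPM over the libraries and those of endothelial cells to at most 1.5 CPM. The mesothelial markers summed to 4274 to 4464 CPM in H226 controls and 4669 to 4958 CPM in treated H226 libraries, and to 186 to 188 and 153 to 161 CPM in ACHN. The kidney markers summed to 8.70 to 10.3 CPM in H226 controls and 16.2 to 18.2 CPM in treated H226 libraries, and to 725 to 755 and 742 to 796 CPM in ACHN. The part of either list in the results below was not tested. The inhibitor's known readouts fell in both lines, with CTGF going from 79.9 ± 7.44 to 13.9 ± 1.22 CPM in H226 and from 109 ± 1.48 to 21.0 ± 2.06 CPM in ACHN (mean ± SD, n = 3 libraries). CYR61, ANKRD1 and AMOTL2 fell as well, 4 of 4 readouts in each line.

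Under DMSO the lines differed in which AP-1 genes had the most RNA. Levels of different genes are compared here per length, as CPM per kilobase of exon. In H226 under DMSO, JUN was highest at 50.8 ± 3.81 (SD, n = 3) and JUND followed at 37.6 ± 0.754. FOSL1 (24.5 ± 3.29) and FOSL2 (23.7 ± 1.51) came next and did not differ beyond their spread, followed by JUNB at 18.0 ± 1.94. ATF3 stood at 2.66 ± 0.322, FOS at 0.729 ± 0.137 and FOSB at 0.0711 ± 0.0278, so that the classical immediate-early FOS genes were a trace of the family's RNA. In ACHN under DMSO, FOSL1 led at 84.8 ± 4.11, ahead of JUND (45.7 ± 1.18), FOSL2 (36.1 ± 0.503) and JUN (28.3 ± 0.703). JUNB (10.3 ± 1.31) and ATF3 (7.03 ± 0.362) were lower, and FOS (0.813 ± 0.147) and FOSB (0.152 ± 0.0122) were again lowest. ATF3 and FOS lengths are uncertain because their annotated transcripts vary. Per length of the longest transcript ATF3 was 13.5 ± 0.695 in ACHN under DMSO, above JUNB.

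The DMSO groups were then tested gene by gene. Of the 8 members 2 were higher and 5 lower in H226 than in ACHN, where 84.4% of the 14664 genes tested differed (42.2% higher and 42.2% lower), so most genes differ between these lines. The groups of those 7 members did not overlap, as for 85.0% of tested genes. FOSL1, a FOS protein known for its part in invasive carcinoma cells, showed the widest gap. Its levels were 39.0, 49.3 and 50.1 CPM in the H226 DMSO libraries and 158, 168 and 153 CPM in the ACHN ones, a log2 difference of −1.80 ± 0.06 (SE, adjusted p = 2.17e-31). ATF3 read 10.2, 9.81 and 12.2 CPM in H226 against 26.8, 29.8 and 28.6 CPM in ACHN (log2 difference −1.41 ± 0.10, adjusted p = 1.86e-22). All H226 values of these 2 genes lay below all ACHN values.

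JUN and JUNB ran the other way. JUN stood at 166, 193 and 179 CPM in H226 and at 98.5, 98.8 and 103 CPM in ACHN (log2 difference 0.84 ± 0.05, adjusted p = 2.64e-28). JUNB, often an antagonist of JUN on shared sites, stood at 29.5, 36.5 and 32.2 CPM in H226 and at 16.1, 20.8 and 19.2 CPM in ACHN (0.81 ± 0.09, adjusted p = 1.2e-13). FOSL2 (−0.61 ± 0.04) and JUND (−0.28 ± 0.05) were lower in H226, and FOS was not called (−0.14 ± 0.24). FOSB was called lower in H226 (−1.06 ± 0.49, adjusted p = 0.0387) on 3 to 6 counts per H226 library and 9 to 10 per ACHN library, and that call was lost in 7 of 18 other settings, among them DESeq2 (adjusted p = 0.0883). Scaling by library size alone moved the median of all genes in this comparison from 0.00 to −0.16 on the log2 scale, and no member changed sign under it. The line and how its cells were handled cannot be told apart.

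**Figure D1:**
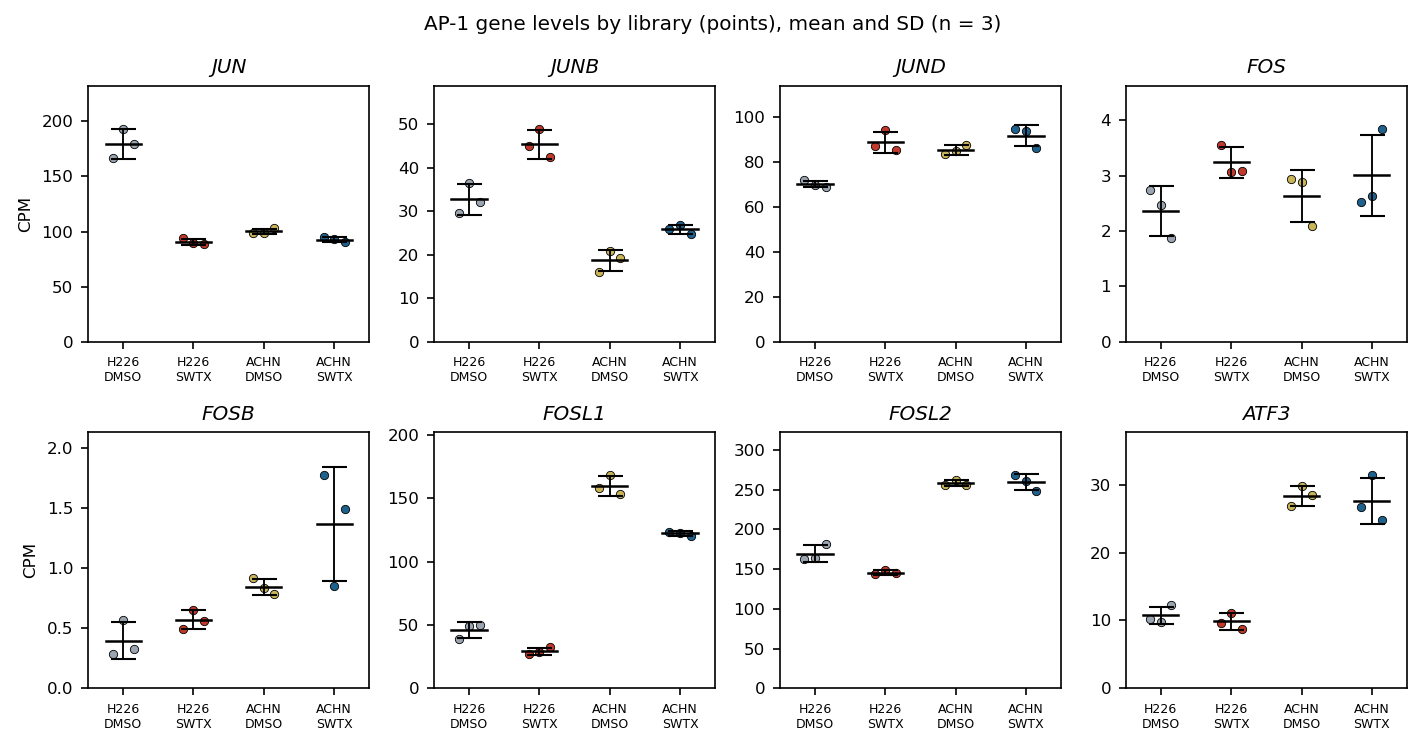
Level of each AP-1 gene in CPM (vertical axis, each panel from 0) in the 3 libraries of each group, with mean and SD. JUN drops from 166 to 193 CPM to 88.5 to 93.9 CPM in treated H226 and sits between 90.1 and 103 CPM in all 6 ACHN libraries, while FOSL1 and ATF3 are higher in every ACHN library than in any H226 library.

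In H226 the inhibitor lowered JUN, FOSL1 and FOSL2 and raised JUNB and JUND. Of the 7 members that passed the filter on low counts, 3 fell, 2 rose and 2 were not called, in a line where 40.7% of 13484 tested genes were called (21.6% lower and 19.0% higher). FOSB was too low to test. With so many genes called, that count is not a result about AP-1, and the sizes and directions of single genes carry the description. The median log2 fold change was −0.13 over the 7 members and 0.00 over all tested genes.

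JUN, the central AP-1 subunit, changed most. The 3 DMSO libraries read 166, 193 and 179 CPM and the treated ones 93.9, 89.4 and 88.5 CPM. Every treated value lay below every control value, as it did, in either direction, for 48.4% of tested genes. The log2 fold change was −0.998 ± 0.0509 (SE, adjusted p = 1.16e-22), so JUN RNA fell by 49.9%. It ranked 346th of 13484 genes by the size of its change. In bulk RNA, fewer cells with a gene on and less RNA per cell cannot be told apart.

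FOSL1 fell from 39.0, 49.3 and 50.1 CPM to 27.0, 28.7 and 32.3 CPM (−0.66 ± 0.09, adjusted p = 1.01e-05). The groups did not overlap, with the lowest control library at 39.0 CPM and the highest treated one at 32.3 CPM. FOSL2, the close relative of FOSL1, fell by less, from 163, 164 and 182 CPM to 143, 149 and 145 CPM (−0.23 ± 0.05, adjusted p = 8.22e-05), again without overlap.

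JUNB and JUND, the other JUN family members, rose. JUNB went from 29.5, 36.5 and 32.2 CPM to 44.9, 48.9 and 42.4 CPM (0.46 ± 0.07, adjusted p = 6.92e-07). JUND, often linked to slower growth, went from 71.7, 69.7 and 69.0 CPM to 86.8, 93.9 and 85.1 CPM (0.33 ± 0.05, adjusted p = 1.16e-06). In both genes all treated libraries were above all controls. JUNB shares 259 bases of exon with HOOK2 on the opposite strand in the reference annotation, and without a stated strand setting their reads cannot be separated. HOOK2 itself rose in H226 (0.34 ± 0.10, adjusted p = 0.0039) and averaged 14.2 CPM against 30.7 CPM for JUNB over the 12 libraries.

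The remaining H226 members were not called. FOS, the founding partner of JUN, had 29, 26 and 17 counts in the DMSO libraries and 36, 33 and 33 counts in the treated ones. Its groups did not overlap, but the fold change of 0.43 ± 0.23 had an adjusted p of 0.129 and a 95% interval of −0.03 to 0.88. ATF3 read 10.2, 9.81 and 12.2 CPM and then 9.68, 11.2 and 8.72 CPM, with overlapping groups (−0.13 ± 0.13, 95% interval −0.38 to 0.13). FOSB had 3 to 6 counts in controls and 5 to 7 in treated libraries, too few to judge a change.

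In ACHN the inhibitor lowered FOSL1 and raised JUNB. All 8 members passed the filter, 1 fell, 1 rose and 6 were not called, beside 17.8% of 13483 tested genes called (9.37% lower and 8.43% higher). FOSL1, the leading AP-1 RNA of this line, fell from 158, 168 and 153 CPM to 124, 123 and 120 CPM (−0.40 ± 0.04, adjusted p = 1.35e-10), so that it fell by 24.3%. JUNB rose from 16.1, 20.8 and 19.2 CPM to 26.0, 26.8 and 24.7 CPM (0.45 ± 0.09, adjusted p = 8.53e-05). The groups of both genes did not overlap, which held for 31.7% of tested genes. HOOK2, on the strand opposite JUNB, was not called here (0.03 ± 0.12, adjusted p = 0.907).

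JUN moved little in ACHN. Its libraries read 98.5, 98.8 and 103 CPM with DMSO and 94.6, 93.4 and 90.1 CPM with the inhibitor. Treated values all lay below the controls, yet the change of −0.13 ± 0.05 missed the limit (adjusted p = 0.0538, 95% interval −0.22 to −0.03), and it missed it in all 13 other settings as well (adjusted p from 0.0513 to 0.231). After treatment JUN levels in the lines overlapped, 88.5 to 93.9 CPM in H226 and 90.1 to 94.6 CPM in ACHN, a comparison that was not tested. JUND read 83.2, 84.7 and 87.5 CPM and then 94.6, 93.7 and 86.3 CPM, with overlap (0.09 ± 0.05, adjusted p = 0.236). FOSL2 was level at 258 ± 3.60 and 259 ± 9.95 CPM (SD, n = 3), with a 95% interval of −0.09 to 0.07 for its log2 change.

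FOS, FOSB and ATF3 were not called in ACHN either. FOSB had 10, 9 and 9 counts in controls and 21, 9 and 17 in treated libraries, so 1 treated library lay at the control level (0.69 ± 0.35, 95% interval −0.01 to 1.40). FOS had 24 to 32 counts in controls and 28 to 44 in treated libraries (0.18 ± 0.23, 95% interval −0.27 to 0.63). ATF3 overlapped between groups (−0.06 ± 0.08, 95% interval −0.22 to 0.10).

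**Figure D2:**
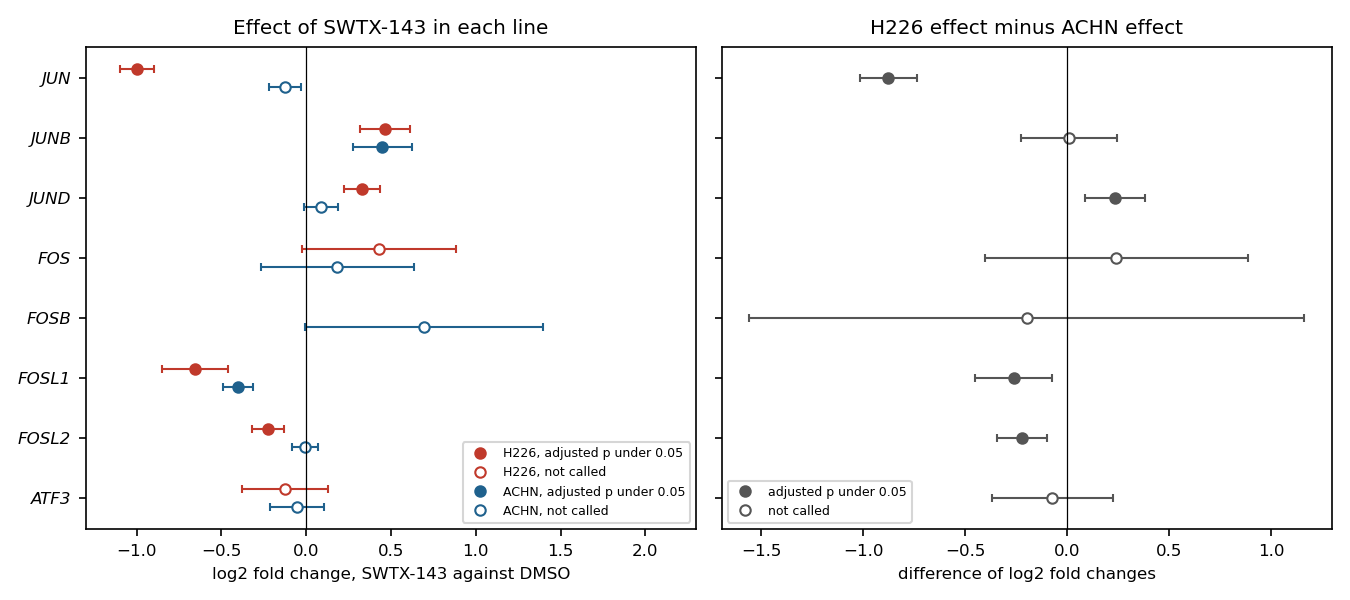
Left, log2 fold change under SWTX-143 (horizontal axis) of each AP-1 gene in H226 and ACHN with its 95% interval, filled where the adjusted p was under 0.05. FOSB has no H226 value. Right, the H226 effect minus the ACHN effect, which is farthest from 0 for JUN at −0.88.

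The difference between the lines was tested in a joint fit of the 12 libraries. The effect on JUN was stronger in H226 by −0.88 ± 0.07 on the log2 scale (adjusted p = 2.19e-17), and this held in all 18 other settings, from −0.90 to −0.78. Calls were also made for JUND (0.23 ± 0.07, adjusted p = 0.0212), FOSL2 (−0.22 ± 0.06, adjusted p = 0.0063) and FOSL1 (−0.26 ± 0.09, adjusted p = 0.0486). That made 4 of 8 members beside 15.6% of 14664 genes (9.70% lower and 5.89% higher). This split of all genes was not stable. Of all calls 37.8% were higher in this fit, 49.3% to 54.0% with any 1 H226 library left out and 37.1% to 38.4% with any 1 ACHN library left out. The FOSL1 call was lost in 14 of 18 other settings, including every other scaling tried, with adjusted p up to 0.319. The JUND call was lost without replicate 3 of either ACHN group (adjusted p = 0.0712 without the DMSO library and 0.0803 without the treated one). The FOSL2 call was lost without H226 DMSO replicate 3 (−0.13, adjusted p = 0.20) or H226 SWTX-143 replicate 1 (−0.18, adjusted p = 0.0705). JUNB rose in both lines, and the difference of its effects was 0.01 with a 95% interval of −0.23 to 0.24. For FOS, FOSB and ATF3 the difference was not called, and the interval for FOSB, −1.56 to 1.16, is too wide to show a difference at this depth.

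The make-up of AP-1 RNA is given as a description, with no test. JUN made up 32.1 ± 0.963% (SD, n = 3) of the summed per-length AP-1 level in H226 under DMSO and 18.6 ± 0.907% under the inhibitor. Over the same libraries JUND went from 23.9 ± 1.76% to 34.6 ± 0.739% and JUNB from 11.4 ± 0.720% to 18.1 ± 0.790%. The treated order in H226 was JUND at 47.5 ± 2.50 per kilobase, then JUN (25.6 ± 0.818) and JUNB (24.9 ± 1.82), which overlapped, then FOSL2 (20.3 ± 0.429) and FOSL1 (15.5 ± 1.45). The JUN family as a whole held 67.4 ± 1.67% before and 71.3 ± 1.26% after treatment, but its level did not rise. The family level was 101.7 to 112.1 per kilobase in H226 controls and 93.9 to 102.5 in treated libraries, with overlap. The FOS family level was 44.3 to 52.6 per kilobase in controls and 35.5 to 38.4 in treated libraries, without overlap. The sum over all 8 genes was 148 to 164 per kilobase in H226 controls and 134 to 142 in treated libraries.

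In ACHN the FOS family held the larger share, 57.2 ± 1.27% with DMSO and 51.5 ± 0.703% with SWTX-143. FOSL1 alone made up 39.8 ± 1.22% and then 32.7 ± 0.582%, and it remained the highest of the 8 at 64.8 ± 0.915 per kilobase, ahead of JUND (49.1 ± 2.47), FOSL2 (36.2 ± 1.39) and JUN (26.2 ± 0.663). JUNB went from 4.82 ± 0.511% to 7.15 ± 0.137%. The summed level was 209 to 219 per kilobase in controls and 191 to 203 in treated libraries.

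**Figure D3:**
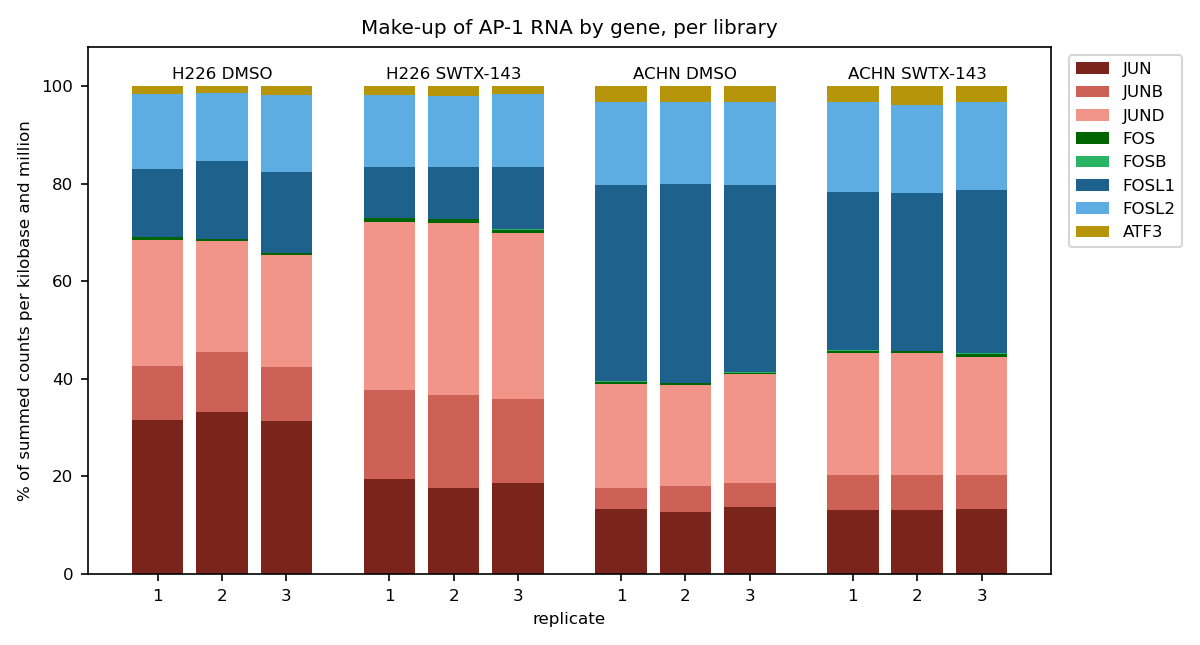
Share of each gene in the summed AP-1 level (CPM per kilobase of exon, vertical axis in %) in each of the 12 libraries. JUN shrinks from 32.1% to 18.6% on average in H226 under SWTX-143 while JUND and JUNB widen, and FOSL1 is the largest part of every ACHN library.

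Genes whose pattern over the 12 libraries lay nearest to each member were found by the root mean square difference of log2 levels, each gene centred on its own mean, among 11492 genes of at least 5 CPM. For JUN, which spanned 1.12 log2 units between libraries, they were SGK223 (0.09), SRM (0.13) and POLR1E (0.13). For FOSL1, which spanned 2.62 units, they were MTCL1 (0.12), UTP20 (0.14) and PDXP (0.14). FBLIM1, CACFD1 and SDCBP lay nearest to JUNB (0.11 to 0.13), LTBP4, VAMP8 and CDIPT to JUND (0.04 to 0.06), and SF3B3, BAG2 and SMPD4 to FOSL2 (0.04 to 0.05). GSAP, BBIP1 and C2orf42 were nearest to FOS (0.15 to 0.16) and SDHA, DHODH and MGMT to ATF3 (0.09 to 0.10). JUNB, JUND, FOSL2 and ATF3 spanned 1.57, 0.45, 0.90 and 1.79 units. FOS spanned 0.87 units on 17 to 44 counts per library, so its nearest genes may reflect sampling noise. FOSB was not examined because it was not tested in H226.

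Other leucine-zipper proteins that can pair with AP-1 subunits split in direction. Of 13 listed, 10 were tested in H226, where 3 rose, 1 fell and 6 were not called, and 8 in ACHN, where 1 rose, 3 fell and 4 were not called. Over all tested genes 40.7% were called in H226 and 17.8% in ACHN. The difference between the lines was called for 1 of 10 tested, MAFK, beside 15.6% of all genes tested. In H226 MAF rose from 60.4 ± 1.76 to 107 ± 4.52 CPM (0.82 ± 0.05, adjusted p = 5.6e-19), and it was near absent in ACHN at 0.210 ± 0.103 CPM. ATF2 (0.26 ± 0.06) and ATF7 (0.24 ± 0.06), partners that carry JUN to cyclic AMP response elements, rose in H226. JDP2, a repressor that pairs with JUN, fell in both lines (−0.43 ± 0.09 and −0.25 ± 0.09). The small MAF gene MAFK fell in ACHN from 90.7 ± 6.95 to 52.0 ± 3.29 CPM (−0.82 ± 0.06, adjusted p = 1.06e-16) and was not called in H226 (−0.13 ± 0.05), with a tested difference of 0.68 ± 0.08 (adjusted p = 1.43e-09). MAFK shares 809 bases of exon with TMEM184A, at 59.8 against 84.4 CPM. MAFF fell (−0.41 ± 0.12) and CREB5 rose (0.22 ± 0.05) in ACHN.

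Genes that feed AP-1 were called in both directions. Of 19 kinases, ternary-complex factors and degradation genes, all tested, 4 fell and 1 rose in H226 and 2 fell and 2 rose in ACHN. For all tested genes the share called was 40.7% in H226 and 17.8% in ACHN. The JUN kinase gene MAPK8 (JNK1) fell in both lines (−0.22 ± 0.07 and −0.38 ± 0.06), and MAPK9 (JNK2) fell in H226 (−0.16 ± 0.05). MAP2K1 (−0.30 ± 0.06), a kinase of the ERK pathway whose gene overlaps SNAPC5, and SRF (−0.35 ± 0.07), which drives FOS through its serum response element, fell in H226, while the ERK gene MAPK3 rose (0.27 ± 0.06). In ACHN ELK3, an SRF cofactor, rose (0.26 ± 0.04), as did MAP3K1 (0.23 ± 0.07), upstream of the JUN kinases, and RPS6KA1 fell (−0.14 ± 0.05).

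Immediate-early genes, which share inputs with FOS and JUN, did not move as a block. Of 15 listed, 11 were tested in each line, with 4 lower and 4 higher in H226 and 1 lower and 3 higher in ACHN. Beside them, 40.7% of all tested genes were called in H226 and 17.8% in ACHN. The survival-linked gene IER3 fell in H226 from 32.9 ± 1.35 to 18.0 ± 2.12 CPM (−0.88 ± 0.08, adjusted p = 8.38e-13) and was level in ACHN (−0.01 ± 0.08), a difference of −0.87 ± 0.12 (adjusted p = 8.09e-09). DUSP1, a phosphatase that switches off the MAP kinases, fell in H226 (−0.35 ± 0.04) and by more in ACHN (−0.87 ± 0.05), with a difference of 0.51 ± 0.07 (adjusted p = 7.59e-09). KLF6 fell in H226 (−0.16 ± 0.06) and rose in ACHN (0.28 ± 0.04), with a difference of −0.45 ± 0.07 (adjusted p = 6.73e-07). BTG2, which restrains proliferation, rose in both (0.43 ± 0.06 and 0.25 ± 0.06), IER2 rose in H226 (0.37 ± 0.07) and EGR1 in ACHN (0.37 ± 0.07).

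Known AP-1 target genes split in direction. Of 25 listed, 20 were tested in H226 with 6 lower, 8 higher and 6 not called, and 19 in ACHN with 7 lower, 7 higher and 5 not called. Among all tested genes the share called in either direction was 40.7% in H226 and 17.8% in ACHN. The median log2 fold change of the targets was 0.10 in H226 and −0.05 in ACHN, beside 0.00 over all tested genes in each. The cytokine gene LIF fell in both lines, from 121 ± 5.09 to 73.5 ± 0.726 CPM in H226 (−0.73 ± 0.05) and from 154 ± 7.50 to 114 ± 2.82 CPM in ACHN (−0.46 ± 0.04). CCND1, the cyclin D1 gene that JUN is known to activate, fell in H226 from 353 ± 1.52 to 240.4 ± 3.56 CPM (−0.56 ± 0.04) and was not called in ACHN (−0.04 ± 0.04), a difference of −0.53 ± 0.06 (adjusted p = 1.03e-11). DCBLD2 rose in both lines (0.37 ± 0.04 and 0.26 ± 0.03). In ACHN the membrane linker ezrin (EZR) fell from 744 ± 15.3 to 491 ± 10.2 CPM (−0.61 ± 0.03), while the chromatin protein HMGA2 (0.62 ± 0.04) and osteopontin (SPP1, 0.43 ± 0.03) rose.

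**Figure D4:**
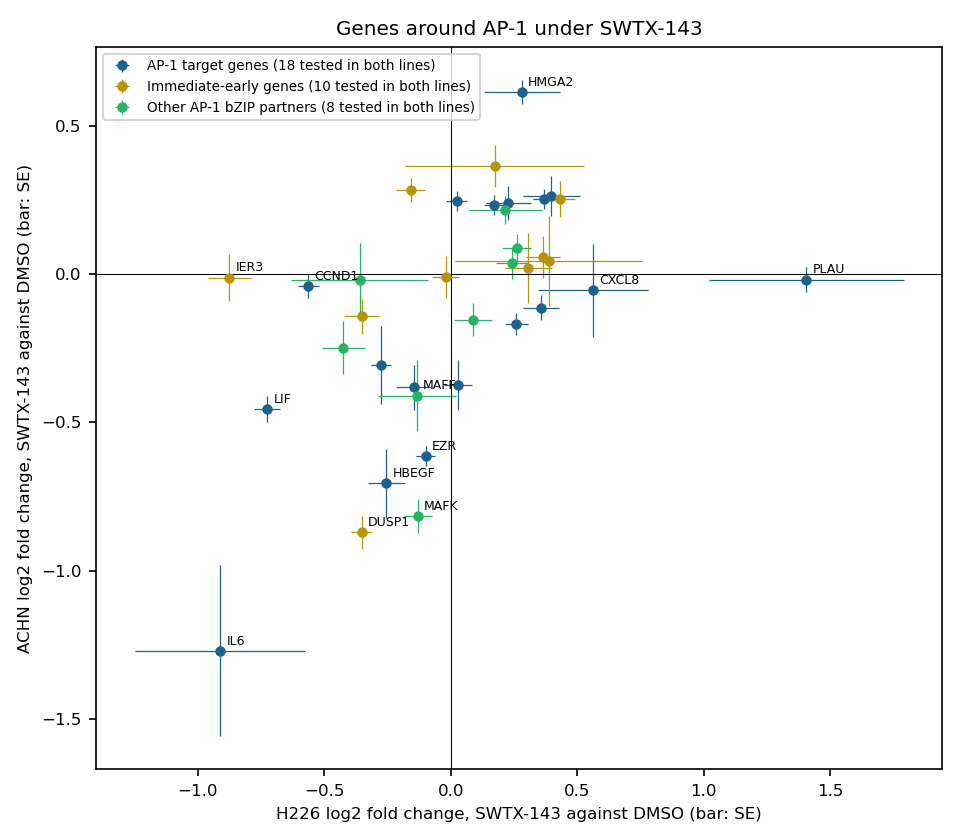
Log2 fold change under SWTX-143 in H226 (horizontal axis) and ACHN (vertical axis) of AP-1 targets, immediate-early genes and other AP-1 partners tested in both lines, with SE bars. LIF lies lower left in both lines, CCND1 and IER3 are low along the H226 axis and near 0 in ACHN, and MAFK and EZR are low along the ACHN axis.

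ATF3 lies downstream of ATF4 in the stress response, and genes of that pathway were listed as well. Of 10 listed and tested, 1 fell and 0 rose in H226 under edgeR, and 2 fell and 1 rose in ACHN. Called shares over all tested genes were 40.7% in H226 and 17.8% in ACHN. The kinase gene EIF2AK4 (GCN2) fell in H226 (−0.29 ± 0.06), where DDIT3 (0.17 ± 0.08), CHAC1 (0.65 ± 0.32) and PPP1R15A (−0.13 ± 0.06) were not called. In ACHN SESN2 rose (0.46 ± 0.06), and ATF4 (−0.10 ± 0.04) and DDIT3 (−0.19 ± 0.06) fell. DDIT3 shares exon bases with MARS and MBD6, both higher than it. Among the genes of the inhibitor's own targets and their coactivators, TEAD4 fell by −0.69 ± 0.06 in H226 and −0.24 ± 0.05 in ACHN, a difference of −0.46 ± 0.08 (adjusted p = 5.2e-06), and TEAD1 fell in both (−0.36 ± 0.04 and −0.51 ± 0.04). TEAD3 fell in H226 (−0.39 ± 0.08), YAP1 rose in both (0.13 ± 0.04 and 0.20 ± 0.04), and WWTR1, which encodes TAZ, rose in H226 (0.36 ± 0.06) and fell in ACHN (−0.15 ± 0.04).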

How the data were processed

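The authors deposited 1 table of raw read counts per gene symbol for each line. Per the submitters' processing notes, FastQC, cutadapt, STAR 2.6.1d and hg19 (GRCh37) were used. Which program counted the reads, with what strand setting and on which annotation, is not stated in the labels or table headers. Counts were fitted with edgeR 4.0.16 in R 4.3.3: filterByExpr, TMM scaling, robust quasi-likelihood F tests of SWTX-143 against DMSO on the 6 libraries of each line, and a joint fit of 12 libraries for the difference between lines and for the DMSO groups. The Benjamini-Hochberg adjustment covered every gene tested, with 0.05 as the limit, and each SE is the log2 fold change over the root of its F statistic. CPM used the joint TMM library sizes. Likeness of pattern used log2(CPM + 0.5). Exon lengths and overlaps came from GENCODE 29 (GRCh38), used for no coordinate of the counts. Fits were tested on simulated counts.

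Named genes were the 8 members, 4 TEAD readouts, up to 4 members of each listed group with the smallest p per line, and the 3 genes nearest in pattern to each member. HOOK2 was added for its overlap with JUNB. A gene that this rule names among the AP-1 targets is not reported here. The members and lists were chosen with earlier results of these data known. Alternatives were 3 scalings, no low-count filter, DESeq2 1.42.0, a joint fit, the replicate number as a block, each library left out, and for levels another length or library size. Replicate pairs differed beyond sampling noise (chi-square per degree of freedom 1.34 to 3.27), so no library was a copy.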

Additional observations from a re-analysis of the deposited data

Results flagged for a closer look

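The effect of SWTX-143 differed between H226 and ACHN, by the test of the difference itself, for 4 of the 8 AP-1 genes, beside 15.6% of the 14664 genes tested. JUN fell in every treated H226 library relative to every control, and its effect in H226 minus that in ACHN was −0.88 on the log2 scale. JUND rose in H226 and was not called in ACHN, with a difference of 0.23. FOSL1 fell in both lines and by more in H226, with a difference of −0.26. FOSL2 fell in H226 and was not called in ACHN, with a difference of −0.22. The JUND and FOSL2 calls were each lost with 1 of 2 libraries left out, at adjusted p up to 0.0803 for JUND and 0.20 for FOSL2. Of the 4, the FOSL1 difference is the least secure, as its adjusted p of 0.0486 rose above the limit in 14 of 18 other settings.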

How the results depend on the processing

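For the drug effects in H226 and ACHN, the direction and call of every tested member held in each alternative that gave it an adjusted p. The exceptions were uncalled FOS, FOSL2 and ATF3 changes in ACHN, which took either sign. No call was gained or lost in either line. In the difference between lines, members called higher ranged from 0 to 1 and members called lower from 1 to 3 with 1 library left out, genes called lower from 832 (without H226 DMSO replicate 2; 932 without replicate 3) to 1411 and genes called higher from 716 to 1140. DESeq2 called 638 genes higher in ACHN, against 1137 by edgeR, and 856 genes lower in the difference, against 1423. Scaling moved the split of all calls: the share higher was 46.8% in H226, 58.6% with upper-quartile scaling and 56.2% with library size alone. In ACHN it was 47.4%, 58.5% and 61.1% in that order. It moved from 37.8% to 52.6% in the difference with upper-quartile scaling or 49.9% without the filter. With the longest transcript as length, the JUN family share was 64.3% and 68.2% in H226 and 36.1% and 41.4% in ACHN, DMSO before SWTX-143. ATF3 then made up 3.09% in place of 1.69% in H226 under DMSO.

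The replicate numbers recur in each group, and no pairing of the libraries was seen. Deviations of same-numbered libraries correlated between −0.08 and 0.06, and those of differently numbered ones between −0.12 and 0.10. A weak shared effect could be missed with 3 libraries per group. With the replicate number as a block, JUN was −0.996 in H226, where 3062 genes were called lower and 2682 higher in place of 2919 and 2567. No member call changed under the block in any comparison. Depth limits FOS and FOSB, at 17 to 44 and 3 to 21 counts per library, where only large changes could be called.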
